A study of Mus musculus with 10 samples.

Results

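The insulin-like growth factor system was followed through 10 genes: the growth factors Igf1 and Igf2, the receptors Igf1r and Igf2r, and the binding proteins Igfbp2, Igfbp3, Igfbp4, Igfbp5, Igfbp6 and Igfbp7. They were chosen by name, out of 18193 genes that the arrays read with a probe set assigned to 1 gene, and every such probe set of a member was taken, 28 of 34945. Of these, 27 of 24461 passed a filter on dim signal and were tested. The 1 that did not was 1452108_at, an Igf1r probe set whose log2 signal lay between 4.55 and 5.13 in all samples. Each gene is led by its main probe set, the one with the highest mean signal.

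Expression arrays were run on mouse embryos at 15 dpc (days post coitum), in 5 groups of 2 biological replicates, 10 samples in all. In ICR, gallbladders were either wild type or Sox17+/-, and cystic duct was wild type; in B6, only gallbladders were taken, again wild type or Sox17+/-. ICR is an outbred stock and B6 an inbred one, so the B6 samples (replicates 3 and 4) differ from the ICR samples (replicates 1 and 2) in background as well as in any handling that went with it. The labels describe neither the Sox17 allele nor which embryos or litters a sample came from, nor whether embryos were pooled, so every p-value measures the spread between these samples only.

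Insulin-like growth factors are small secreted hormones that drive growth of the embryo. Both bind the receptor tyrosine kinase encoded by Igf1r, which signals through the insulin receptor substrates to PI3 kinase and Akt. Igf2r, also the cation-independent mannose 6-phosphate receptor, takes up Igf2 and delivers it to lysosomes without passing on the growth signal, and in the mouse it is expressed from the maternal copy, while Igf2 is expressed from the paternal one. The binding proteins hold the growth factors in the extracellular space and can block or prolong their action, and proteases such as the one encoded by Pappa release them. Igfbp2 and Igfbp5 lie next to each other on mouse chromosome 1.

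Sox17 itself followed the genotype labels. Its main probe set had log2 signals of 9.52 and 9.24 in ICR wild type gallbladder against 7.65 and 7.90 in ICR Sox17+/-, and 9.29 and 9.04 against 8.03 and 7.91 in B6, so all wild type gallbladders lay above all Sox17+/- ones. Over both strains it stood at 37.8% of wild type (log2 difference -1.40, SE 0.11, limma adjusted p = 0.00862). In cystic duct it was 8.28 and 7.63. Replicates correlated at r = 0.960 to 0.995 in gallbladder and at 0.889 in the cystic duct pair, in which 6259 probe sets differed by more than 1 log2 unit. Smooth muscle and biliary epithelial markers were present in every group, but hepatocyte markers were highest in the samples labelled cystic duct, with a summed log2 signal of 17.03 to 17.42 against 14.81 to 15.17 in ICR wild type gallbladder.

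Igfbp2 was the 1 member that passed for Sox17 genotype. It was read by a single probe set, 1454159_a_at, so no other probe set of the gene could be set beside it. The promoter sequences of Igfbp2 and of its neighbour Igfbp5, which did not pass the test, are printed here because the genes sit side by side on the chromosome and differed in the call; the difference between the genes was not tested. Both are from RefSeq (GRCm38.p6), the 250 bases before an annotated start, written 5′ to 3′ along the gene. The Igfbp2 window is chr1:72824230-72824479 on the plus strand and that of Igfbp5 chr1:72874866-72875115 on the minus strand. Igfbp2 has 2 annotated starts, of which the most upstream was used, and Igfbp5 has 1. Capitals mark matches to the GC box GGGCGG or its reverse complement CCGCCC.
Igfbp2: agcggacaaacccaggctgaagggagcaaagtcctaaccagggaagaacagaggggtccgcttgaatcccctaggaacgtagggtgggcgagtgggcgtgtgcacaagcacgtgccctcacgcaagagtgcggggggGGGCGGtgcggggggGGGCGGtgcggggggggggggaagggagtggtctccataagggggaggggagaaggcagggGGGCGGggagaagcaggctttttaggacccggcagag
Igfbp5: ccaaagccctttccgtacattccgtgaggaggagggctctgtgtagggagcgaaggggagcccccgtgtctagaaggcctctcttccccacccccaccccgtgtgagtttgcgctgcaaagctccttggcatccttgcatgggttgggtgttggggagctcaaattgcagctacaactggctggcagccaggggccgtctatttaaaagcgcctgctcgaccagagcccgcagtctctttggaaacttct

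The Igfbp2 window held 3 GC boxes, beginning 113, 98 and 37 bases before the start, and was 67.2% G and C. The Igfbp5 window held none and was 58.8% G and C, against a median of 52.4% over all promoters of this length. A GC box was present in 32.7% of the 32817 promoters searched. Neither window held the core bound by SOX proteins (AACAAT or ATTGTT, in 9.42% of promoters), a TATA box (TATAAA or TTTATA, in 12.4%) or the GLI site (GACCACCCA or TGGGTGGTC, in 0.225%), with both strands searched. These are matches of letters in a short window of the reference genome and say nothing of binding.

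**Figure D1:**
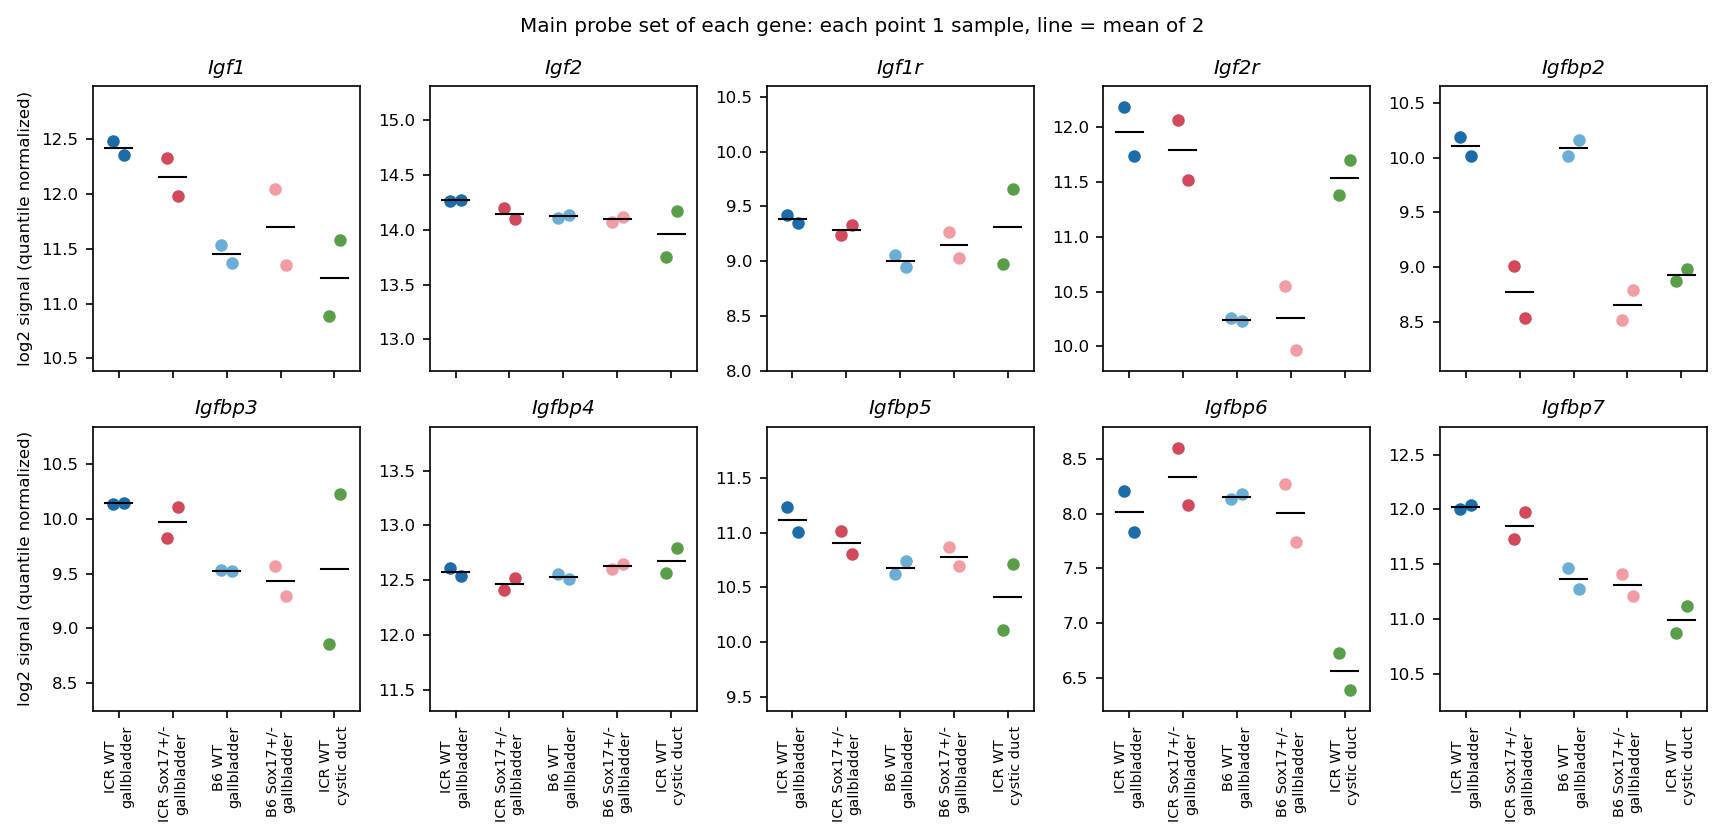
Log2 signal (vertical axis) of the main probe set of each of the 10 genes in each of the 10 samples, by group; points are samples and bars are group means. Igfbp2 lies at 10.01 to 10.19 in both wild type gallbladder groups and at 8.52 to 9.01 in the Sox17+/- groups and cystic duct, while the main Igf2r probe set, though not its other one, lies higher in ICR than in B6.

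The first comparison asked how these genes differed in Sox17+/- gallbladder. Igfbp2, a secreted binding protein abundant in the fetus, had log2 signals of 10.19 and 10.02 in ICR wild type and 9.01 and 8.53 in ICR Sox17+/- gallbladder. In B6 it was 10.01 and 10.16 in wild type and 8.52 and 8.79 in Sox17+/-. All 4 wild type gallbladders therefore lay above all 4 Sox17+/- gallbladders, with no overlap and a gap larger than the range within either genotype.

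Igfbp2 fell to 38.4% of wild type over both strains (95% interval 31.2% to 47.3%), a log2 difference of -1.38 (SE 0.13, limma adjusted p = 0.0193, n = 4 per genotype). It ranked 15 by p and 39 by size of change among the 24461 probe sets. Of all probe sets, 0.135% (33) passed in this comparison, 0.094% lower, against 1 of the 27 member probe sets. Groups that did not overlap, with wild type higher, were found for 2.85% of all probe sets and for the same 1 member. Same-numbered samples deviated together, though the labels do not state pairs. With the number as a block, 13 probe sets passed in place of 33, Igfbp2 among them (limma adjusted p = 0.0435).

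The call on Igfbp2 rested on all 4 B6 samples. Leaving out a B6 wild type sample raised the limma adjusted p to 0.137 or 0.150, and leaving out a B6 Sox17+/- sample raised it to 0.116 or 0.0552. It was 0.0621 when the cystic duct pair entered the fit, where 0.00818% of all probe sets passed. The difference itself stayed between -1.50 and -1.26 whichever gallbladder was left out. The count over all probe sets moved more, to 1060 without ICR wild type replicate 2, to 59 without ICR wild type replicate 1, and to 3, 5, 5 and 18 without each B6 sample in turn. Smooth muscle markers had lower sums in Sox17+/- in both strains without overlap, at 14.41 to 14.48 against 14.56 to 14.66 in ICR and at 14.40 to 14.41 against 14.59 to 14.66 in B6. Hepatocyte sums were 15.74 to 16.06 in ICR Sox17+/- against 14.81 to 15.17 in wild type, and 15.85 to 15.90 against 15.54 to 16.01 in B6. Biliary epithelial sums were 13.70 to 14.09 against 13.43 to 13.61 in ICR, and 14.07 to 14.08 against 13.85 to 14.10 in B6. Skeletal muscle markers reached 12.09 in 1 B6 Sox17+/- sample against at most 9.61 in the other gallbladders. The part of these in the Igfbp2 difference was not tested. In samples of whole tissue, fewer cells of a type and less RNA per cell cannot be told apart.

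The size of the Igfbp2 change was alike in the strains. It was -1.33 on the log2 scale in ICR (SE 0.18, 39.8% of wild type) and -1.43 in B6 (SE 0.18, 37.1%). With 2 samples per group, neither passed on its own, at limma adjusted p = 0.114 and 0.159. Without ICR wild type replicate 2 the ICR difference passed (-1.41, adjusted p = 0.00951), with 1184 probe sets called. In ICR, 0.0491% of all probe sets passed (12) and in B6 0.0123% (3), with 0 of 27 members in each. The genotype effect in B6 minus that in ICR was -0.10, with a 95% interval of -0.70 to 0.50 (limma adjusted p = 0.950). It is called the difference of strains below, and is not the comparison of B6 with ICR gallbladder. For that difference limma passed 0 of the 24461 probe sets (0%), with 1417 of them (5.79%), and 1 member probe set, Igf1 1434413_at, at an unadjusted p under 0.05. Without ICR wild type replicate 2, 877 passed, Igfbp2 not among them (adjusted p = 0.989).

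**Figure D2:**
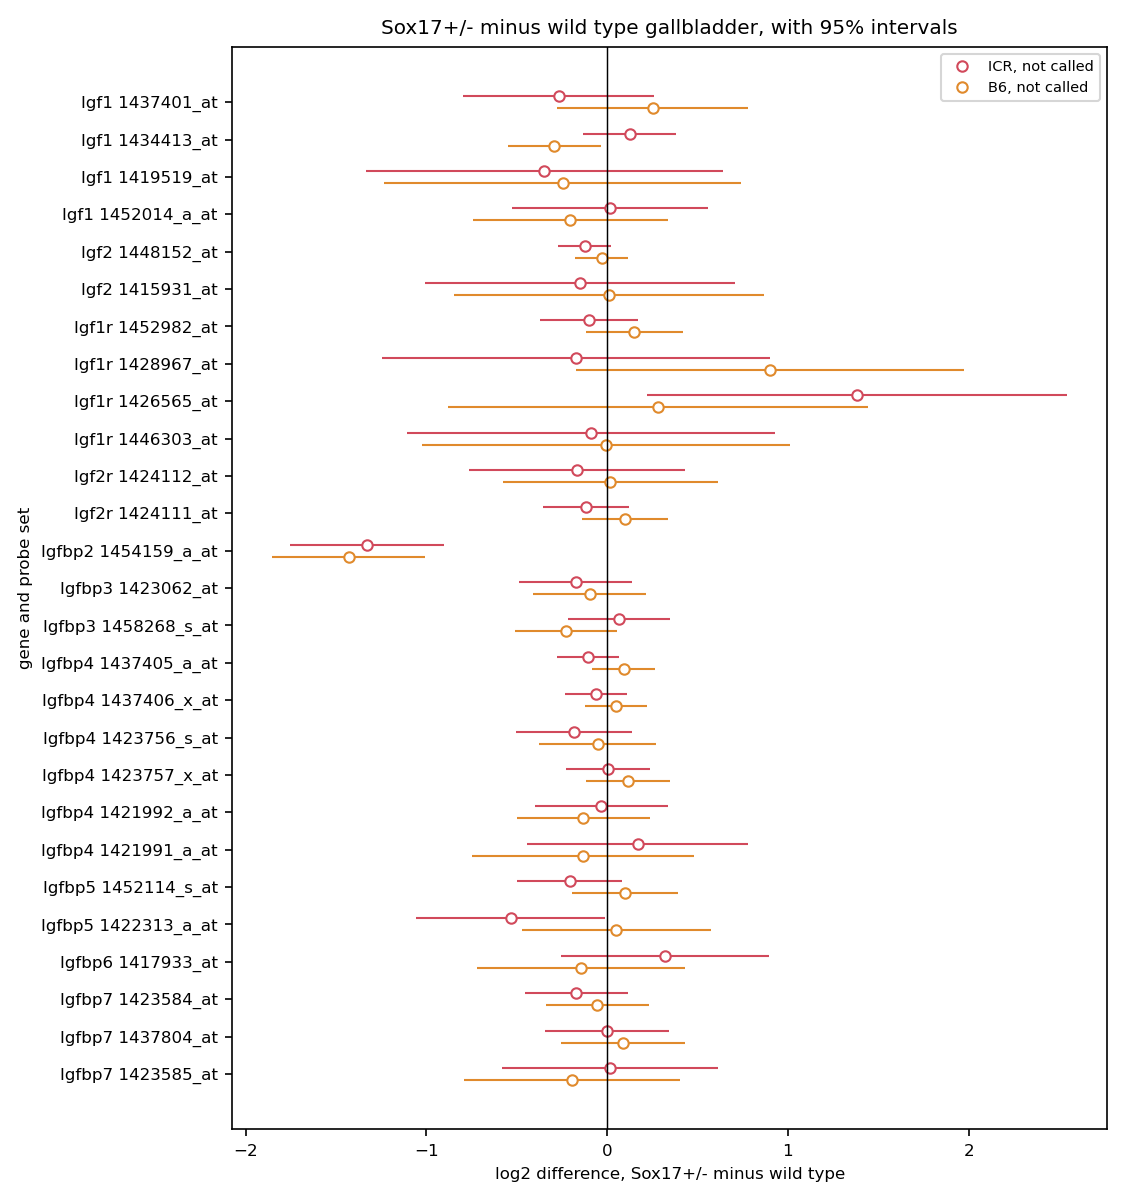
Log2 difference, Sox17+/- minus wild type gallbladder, for the 27 member probe sets in ICR and in B6, each with 95% intervals. Igfbp2 lies at -1.33 in ICR and at -1.43 in B6. No point is filled, since no member passed in either strain alone.

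Among the growth factors and receptors, no difference with genotype passed over both strains. Igf1, the growth factor that mediates growth hormone action after birth, differed by -0.01 (SE 0.16) at its main probe set and by -0.08 to -0.30 at the other 3. The main value averages -0.27 in ICR and 0.25 in B6 (SE 0.22 in each). Igf1 1434413_at differed by 0.12 in ICR and -0.29 in B6 (SE 0.11 in each). None of these passed within a strain. Igf2, the main fetal growth factor of the pair, differed by -0.08 (SE 0.04). Its 8 gallbladder samples lay between 14.07 and 14.28, near the upper end of the scale (the highest value on any array was 15.15). The main probe sets of Igf1r and Igf2r differed by 0.02 (SE 0.08) and -0.07 (SE 0.18).

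A second Igf1r probe set, 1426565_at, was 0.83 higher in Sox17+/- (SE 0.35, unadjusted p = 0.0480, limma adjusted p = 0.498). It rested on 1 low ICR wild type sample, at 5.38 against 7.13 in its replicate, while the Sox17+/- samples lay at 7.61 to 7.92. The genotypes overlapped there, since the B6 wild type samples stood at 7.65 and 7.33. At an unadjusted p under 0.05, 9.9% of all probe sets passed, and 2 members did, Igfbp2 and this one. Igf1r 1428967_at differed by 0.36 (SE 0.32), with -0.17 in ICR and 0.90 in B6 (SE 0.45 in each), and did not pass. In B6 its Sox17+/- samples stood apart, at 9.11 and 7.47.

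The other binding proteins did not pass either. Igfbp3, which carries most of the growth factor in adult blood, differed by -0.14 (SE 0.09), Igfbp4 by -0.01 (SE 0.05), Igfbp5 by -0.05 (SE 0.09), Igfbp6, which prefers Igf2, by 0.09 (SE 0.17) and Igfbp7, a related protein of low affinity, by -0.11 (SE 0.09). The interval for Igfbp4, -0.13 to 0.12, was the narrowest of these. The median of the 27 member probe sets was -0.07, with 20 below 0, against a median of -0.01 and 53.7% below 0 over all probe sets.

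The 10 measured genes nearest to Igfbp2 on the chromosome were read in the same way. From Mreg on one side to Pnkd on the other, and including Igfbp5, 0 of 10 passed for genotype in limma, and their log2 differences ran from -0.24 to 0.14. Over the 8 gallbladder samples, the 3 genes whose pattern was most like that of Igfbp2 were Ppp2r2b (Pearson r = 0.989), Npb (0.978) and Msra (0.978). These were taken from 13142 genes, 52 of which had r above 0.9, and samples of 4 groups share their genotype and strain, so the correlations describe the ordering only. Ppp2r2b, a regulatory subunit of protein phosphatase 2A, differed by -0.65 (SE 0.08, limma adjusted p = 0.0525) and Npb, a neuropeptide precursor, by -1.29 (SE 0.16, adjusted p = 0.0519). Msra, a methionine sulfoxide reductase, differed by -0.30 (SE 0.07, adjusted p = 0.263). None of the 3 passed. Since they were picked for likeness to Igfbp2 in these same samples, a genotype difference was selected for, and their tests are no support for it.

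A wider list of the axis held 49 genes outside the 10: other extracellular binding proteins and proteases, receptor and PI3 kinase signalling genes, and imprinted growth genes and Igf2 RNA-binding proteins. Of these, 43 were measured and 41 tested. By limma, 0 rose and 0 fell with genotype over both strains. The unadjusted p was under 0.05 for 7 of 41, beside 9.9% of all probe sets, and the median difference was 0.01. Igfbp1, a binding protein of liver, was read at 8.06 and 6.88 in ICR wild type and 10.37 and 8.43 in ICR Sox17+/-. In B6 it was 10.00 and 8.54 against 10.63 and 10.13. The difference of 1.52 (SE 0.52) did not pass, the genotypes overlapped, and the hepatocyte sums were higher in the same samples in ICR; their part was not tested. Hmga2, an architectural chromatin protein of fetal growth, differed by -0.62 (SE 0.09, limma adjusted p = 0.0717). Pappa, dim at 4.48 to 6.03 in the gallbladders, differed by -0.62 (SE 0.14).

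The strains differed in more members than the genotypes did. Of the 27 member probe sets, 10 passed in the comparison of B6 with ICR gallbladder over both genotypes, 9 lower and 1 higher in B6, in 7 of the 10 genes. Without either B6 wild type sample 3 member genes passed. The 10 are 37% of the member probe sets beside 15.7% of all probe sets (6.76% higher and 8.9% lower), and probe sets of 1 gene are not independent. The median of the members was -0.10 with 17 of 27 below 0, against 0.05 and 42.1% over all.

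Among the members, the largest strain difference was at an Igf2r probe set. At 1424112_at, the main one, the log2 signals were 12.18 and 11.74 in ICR wild type and 12.06 and 11.52 in ICR Sox17+/-, against 10.26 and 10.23 in B6 wild type and 10.55 and 9.97 in B6 Sox17+/-. All 4 B6 samples lay below all 4 ICR samples. B6 stood at 32.4% of ICR (log2 difference -1.63, SE 0.18, limma adjusted p = 0.00248). It was -1.72 in wild type and -1.53 in Sox17+/- samples, and passed in each (adjusted p = 0.0123 and 0.0318). With the probe sets of a gene averaged it was -0.71 (adjusted p = 0.00644).

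The other Igf2r probe set did not follow. At 1424111_at the ICR samples lay between 10.36 and 10.62 and the B6 samples between 10.58 and 10.78, a difference of 0.20 in the opposite direction (SE 0.07, limma adjusted p = 0.102). The strain difference was therefore not seen by both probe sets of the gene, and no direction is given for Igf2r as a gene.

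Igfbp7 and Igfbp3 were lower in B6 by a smaller margin. Igfbp7 had log2 signals of 11.73 to 12.04 in the 4 ICR gallbladders and 11.21 to 11.46 in the 4 B6 ones, with no overlap. B6 stood at 66.0% of ICR (log2 difference -0.60, SE 0.09, limma adjusted p = 0.00567). The other 2 Igfbp7 probe sets, both dim, differed by -0.09 and 0.01 and did not pass.

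Igfbp3 was read at 9.83 to 10.15 in ICR and 9.29 to 9.57 in B6 at its main probe set, again without overlap. The difference was -0.58 (SE 0.09, 67.1% of ICR, limma adjusted p = 0.00874), and its second probe set was lower as well (-0.50, SE 0.08, adjusted p = 0.00954). The second was lost without either B6 wild type sample (adjusted p up to 0.0522). The main probe sets of Igf2r, Igfbp3 and Igfbp7 passed whichever of the 8 gallbladders was left out. Within wild type alone all 3 passed, but within Sox17+/- alone Igfbp3 and Igfbp7 did not (adjusted p = 0.0913 and 0.0714). With samples centred on their medians, Igfbp3 and Igfbp7 stood at adjusted p = 0.0520 and 0.0541. Igfbp3 was lost with all 10 samples in the fit (0.318), and Igfbp7 with its probe sets averaged (-0.23, adjusted p = 0.128). Igfbp3 and Igfbp7 also had like patterns over the 8 samples (r = 0.985), together with Pde1a for Igfbp3 (0.988) and Ecrg4 for Igfbp7 (0.994).

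Igf1 gave opposite answers by probe set. At the main one, 1437401_at, ICR gallbladders lay between 11.98 and 12.49 and B6 ones between 11.35 and 12.05, a difference of -0.71 (SE 0.16, limma adjusted p = 0.0256). At 1434413_at, ICR lay between 11.65 and 11.95 and B6 between 12.07 and 12.45, a difference of 0.38 (SE 0.08, adjusted p = 0.0196). The remaining pair were lower in B6, by -1.29 (SE 0.30, adjusted p = 0.0286) and -0.54 (SE 0.16, adjusted p = 0.0645). No direction for Igf1 as a gene follows from these, and the main probe set overlapped between strains.

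Igf1r, Igf2 and Igfbp5 each passed at 1 dimmer probe set and not at the main one. Igf1r 1428967_at differed by -1.46 (SE 0.32, limma adjusted p = 0.0250), with 1 B6 Sox17+/- sample at 9.11 beside the ICR range of 9.19 to 9.41 and the other 3 B6 samples at 7.24 to 7.54. Igf2 1415931_at differed by -1.09 (SE 0.26, adjusted p = 0.0313) and Igfbp5 1422313_a_at by -0.71 (SE 0.16, adjusted p = 0.0249). At the main probe sets the differences were -0.26 for Igf1r (SE 0.08), -0.10 for Igf2 (SE 0.04) and -0.28 for Igfbp5 (SE 0.09). These 3 calls and those of Igf1 were each lost when 1 or more single samples were left out, among them either B6 wild type sample for all of them.

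Igfbp2, Igfbp4 and Igfbp6 did not pass for strain. Igfbp2 differed by -0.07 (SE 0.13, 95% interval -0.37 to 0.23), Igfbp4 by 0.06 (SE 0.05) and Igfbp6 by -0.10 (SE 0.17). Leukocyte markers were higher in B6, at summed log2 signals of 12.69 to 13.12 against 12.04 to 12.21 in ICR gallbladder. Hepatocyte sums were higher in B6 than in ICR wild type, but not than in ICR Sox17+/-. They were 15.54 to 16.01 in B6 wild type and 15.85 to 15.90 in B6 Sox17+/-. In ICR they were 14.81 to 15.17 in wild type and 15.74 to 16.06 in Sox17+/-. Fibroblast sums, 16.56 to 16.73 in ICR and 16.62 to 16.68 in B6, were close. The part of the leukocyte and hepatocyte markers in the strain differences was not tested.

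**Figure D3:**
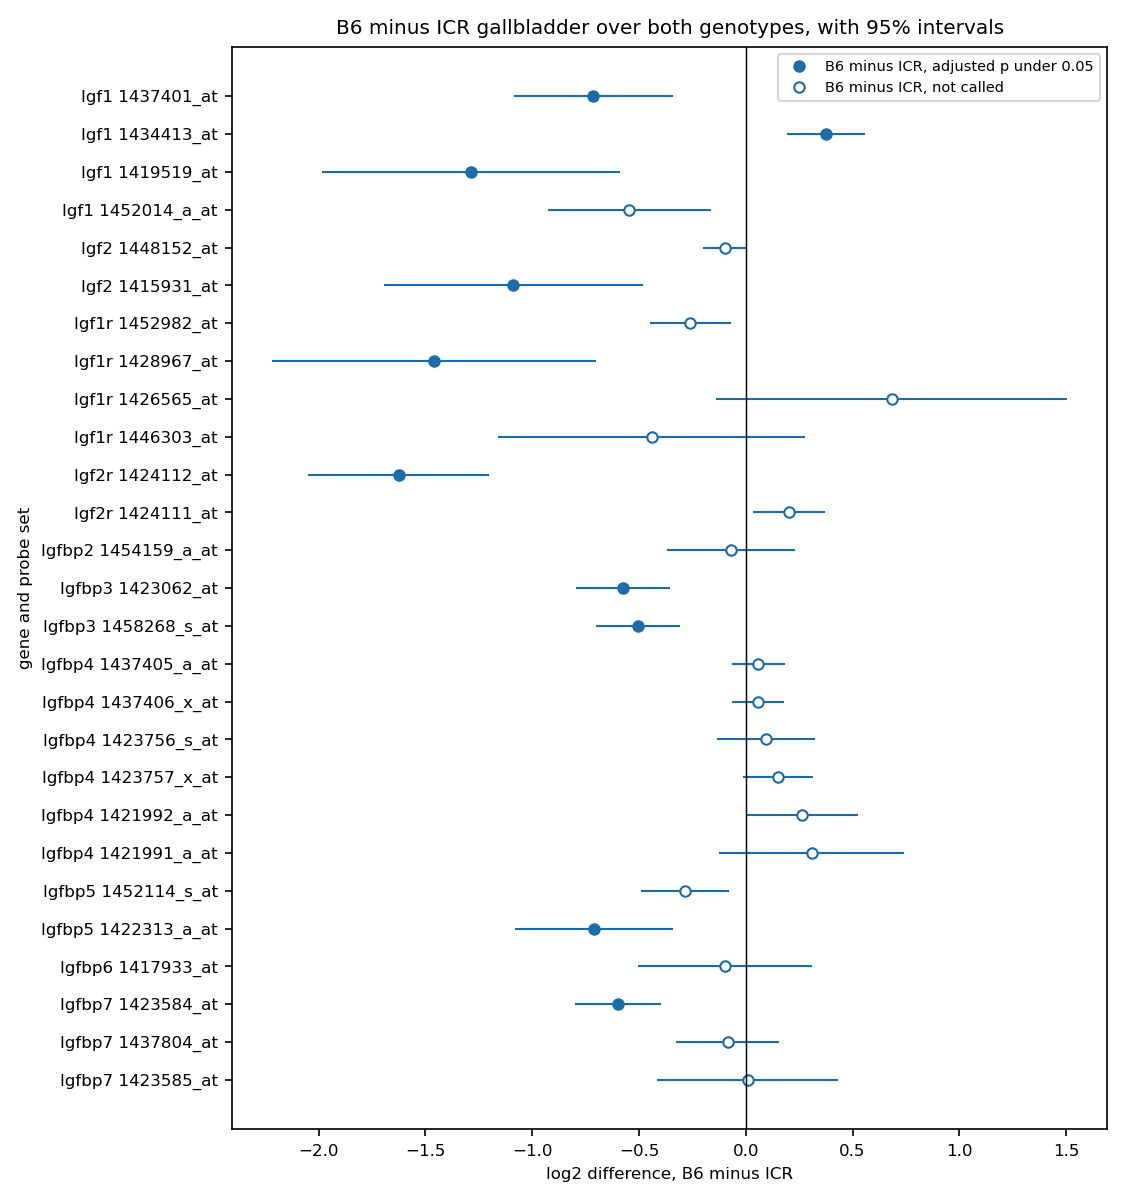
Log2 difference, B6 minus ICR gallbladder over both genotypes, for the 27 member probe sets, with 95% intervals; filled points passed at an adjusted p under 0.05. The 2 Igf2r probe sets lie at -1.63 and 0.20, and the 4 Igf1 probe sets on both sides of 0.

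In the wider list of 41 tested genes, 1 rose and 7 fell in B6 in limma, beside 6.76% higher and 8.9% lower of all probe sets. The 6 with the smallest p are named. Pik3cb, a catalytic subunit of PI3 kinase, passed as higher in B6 (0.66, SE 0.12, adjusted p = 0.0130), at 4.49 to 4.90 in ICR and 5.16 to 5.55 in B6. Its ICR values lie around the cut on dim signal, 4.81, so the probe set passed the filter through its B6 values and the size of the difference is uncertain. Irs2, which couples the receptors to PI3 kinase, fell by 1.18 (SE 0.23, adjusted p = 0.0167), from 6.85 to 7.37 in ICR to 5.46 to 6.38 in B6. The groups did not overlap in either gene.

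Hmga2 fell by 0.51 (SE 0.09, limma adjusted p = 0.0124), the secreted protease Htra1 by 0.36 (SE 0.09, adjusted p = 0.0329), the Igf2 RNA-binding protein Igf2bp1 by 0.87 (SE 0.21, adjusted p = 0.0352) and Pappa, the protease that cleaves Igfbp4, by 0.55 (SE 0.14, adjusted p = 0.0361). Hmga2 overlapped between the strains, at 9.92 to 10.98 in ICR and 9.63 to 10.11 in B6, while Htra1 and Igf2bp1 did not. Pappa overlapped too, at 5.10 to 6.03 in ICR and 4.48 to 5.31 in B6. It was dim, near the cut of 4.81, so the size of its difference is uncertain. The median over the 41 genes was -0.01, against 0.05 over the main probe sets of all genes.

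The last comparison set wild type cystic duct against wild type gallbladder of ICR. It uses the same 2 ICR wild type gallbladders as the ICR genotype comparison, so the values of both are given and their likeness is not counted. Igfbp2 was read at 8.87 and 8.98 in cystic duct against 10.19 and 10.02 in gallbladder, with no overlap. It stood at 44.3% of gallbladder (log2 difference -1.17, SE 0.22, 95% interval -1.73 to -0.62), beside -1.33 for ICR Sox17+/- gallbladder against the same samples. The limma adjusted p was 0.200 (unadjusted p = 0.00273).

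This fit of 4 samples had 2 residual degrees of freedom. In it limma passed 0 of the 24461 probe sets (0%) and 0 of the 27 members. On simulated data with 200 of the 24461 probe sets changed, this fit recovered 0% of changes of 1, 2 or 3 log2 units. Recovery depends on the share of probe sets that change, which may be larger between these tissues, so that value holds for its own setting. With so few degrees of freedom, a count of 0 does not show that the tissues are alike. At an unadjusted p under 0.05 there were 3110 probe sets (12.7%, with 8.21% lower and 4.5% higher) and 10 member probe sets, all lower in cystic duct. When the spread was estimated over all 10 samples, 11.1% of all probe sets passed, 7.1% lower, and 6 member probe sets in 5 genes did, all lower: Igf1 (both 1437401_at and 1434413_at), Igfbp2, Igfbp3 (1458268_s_at), Igfbp6 and Igfbp7. Their adjusted p ran from 0.00422 for Igf1 1434413_at to 0.0353 for Igf1 1437401_at. That fit takes 1 spread for all groups, while the cystic duct pair correlated less than any gallbladder pair. With 1 of the 4 samples left out, the lone remaining sample is assumed to vary like the other tissue: 6059 probe sets and 7 member genes passed without cystic duct replicate 1, 1290 and 4 without cystic duct replicate 2, and 108 and 0 or 198 and 0 without either gallbladder.

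Igf1 was lower in cystic duct at each of its 4 probe sets. The main one was read at 10.89 and 11.59 in cystic duct against 12.49 and 12.36 in gallbladder, and the second at 10.52 and 10.78 against 11.65 and 11.95. The differences of the 4 were -1.19 (SE 0.28), -1.15 (SE 0.22), -1.50 (SE 0.37) and -1.17 (SE 0.40). None passed in the fit of 4 samples (limma adjusted p = 0.200 to 0.342), and the tissues did not overlap at any of them. In all, 13 member probe sets were lower without overlap, beside 28.9% of all probe sets.

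Igfbp6 was read at 6.73 and 6.39 in cystic duct against 8.21 and 7.83 in gallbladder, 36.5% of the gallbladder signal (log2 difference -1.46, SE 0.35, limma adjusted p = 0.250). Igfbp7 was 10.87 and 11.12 against 12.00 and 12.04, or 49.0% (-1.03, SE 0.19, adjusted p = 0.200). Its dimmer probe sets differed by -0.52 (SE 0.47) and 0.38 (SE 0.52), and the mean of the 3 by -0.39. For Igfbp6 and the main Igfbp7 probe set, cystic duct held the lowest values of all 10 samples.

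Other members held nearer to the gallbladder level or disagreed between replicates. The main Igfbp3 probe set was 8.86 in 1 cystic duct sample and 10.23 in the other, on both sides of the gallbladder samples at 10.14 and 10.15, while its second probe set was lower in both (8.38 and 8.11 against 9.30 and 9.11). Igfbp4, at 12.56 and 12.79 against 12.61 and 12.54, differed by 0.10 (SE 0.18), and Igf2, at 13.75 and 14.17 against 14.26 and 14.28, by -0.31 (SE 0.21). Igfbp5 differed by -0.70 (SE 0.27), Igf2r by -0.42 (SE 0.24) and Igf1r by -0.07 (SE 0.30).

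The tissues differed in their signals of cell type markers, though no marker passed in the fit of 4 samples. Fewer cells of a type and less RNA per cell cannot be told apart here either. Hepatocyte markers were higher in cystic duct for 13 of 13 tested, by a median of 3.49 on the log2 scale, and erythroid sums were 13.24 to 14.54 against 11.46 to 12.17. Smooth muscle markers were lower for 8 of 9, by a median of -1.83, with sums of 12.47 to 13.25 against 14.56 to 14.66, while biliary epithelial sums were 13.63 to 13.66 against 13.43 to 13.61. Fibroblast sums were 15.95 to 16.54 in cystic duct against 16.56 to 16.71 in gallbladder. Mesothelial sums were 10.49 to 10.56 against 10.75 to 11.11, and endothelial sums 11.34 to 11.57 against 11.58 to 11.80. Leukocyte sums were higher, at 12.52 to 12.85 against 12.04 to 12.20. The part of all these markers in the lower Igf1, Igfbp2, Igfbp6 and Igfbp7 signals was not tested. The median of the 27 member probe sets was -0.42, with 18 below 0, against -0.07 and 54.9% over all. By limma, 0 of 41 genes of the wider list rose and 0 fell. The unadjusted p was under 0.05 for 4 of 41, beside 12.7% of all probe sets. Among these was Igfbp1, 3.41 higher in cystic duct (SE 0.54), at 11.41 and 10.34 against 8.06 and 6.88.

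**Figure D4:**
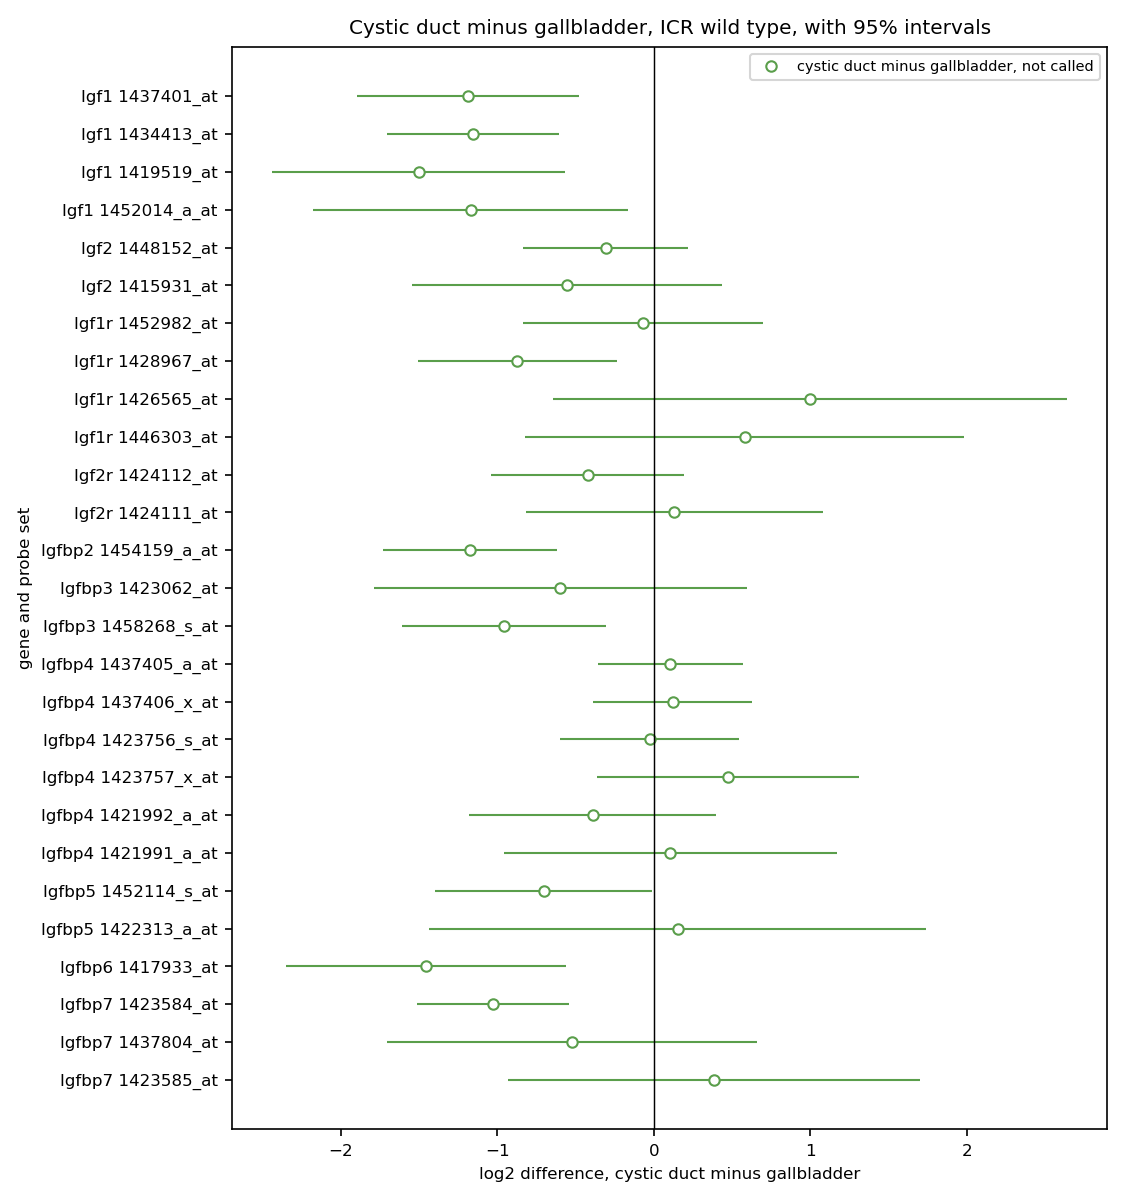
Log2 difference, wild type cystic duct minus wild type gallbladder of ICR, for the 27 member probe sets, with 95% intervals from the fit of 4 samples; none passed. The 4 Igf1 probe sets lie between -1.50 and -1.15, Igfbp6 at -1.46 and Igfbp2 at -1.17.

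Set in order, the groups fell differently for each member. For Igfbp2 both wild type gallbladders, at means of 10.10 ± 0.12 (SD, n = 2) in ICR and 10.08 ± 0.10 in B6, were not distinct from each other. Cystic duct at 8.93 ± 0.08, ICR Sox17+/- at 8.77 ± 0.34 and B6 Sox17+/- at 8.66 ± 0.19 lay below them, and neighbours among these overlapped. Cystic duct was not tested against Sox17+/- gallbladder, and overlap between groups of 2 does not show a shared level. At the main Igf2r probe set, 1424112_at, cystic duct (11.38 and 11.70) lay below ICR wild type gallbladder and above all B6 samples. At 1424111_at the order of means was another, and no neighbouring groups were without overlap.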

How the data were processed

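Affymetrix expression arrays were analysed from the deposited table of log2 signals per probe set, log2 per the labels. How the authors corrected background and normalized is not given in the sources used here. Per the labels' protocols, 10 ug of Trizol-extracted RNA was made into biotinylated cRNA. Groups come from titles and strain labels, since the tags that hold stage and genotype are interchanged. Precision is limited by there being 10 arrays.

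Of 45101 probe sets, 64 controls were left out, 34945 name 1 gene in the platform table, 932 several and 9160 none. Only the first were used (34741 Entrez identifiers found in the GRCm38.p6 gene table, 204 not). Deposited sample medians ran from 5.51 to 6.07, so samples were quantile normalized. Probe sets under the 30th percentile of mean signal (4.81) were left out, leaving 24461 of 13887 genes. Levels are not compared between probe sets.

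The limma model (version 3.58.1 in R 4.3.3) had 1 mean for each group and a mean-variance trend. It was fitted on the 8 gallbladders for genotype and strain and on the 4 ICR wild type samples for cystic duct, with Benjamini-Hochberg adjustment over all tested probe sets at 0.05. Code was tested on simulated data. Marker lists were summed on the linear scale over measured genes. Like genes are the 3 named genes of highest Pearson correlation per member. Wider-list genes are named where they passed, at most 6 by p; others named were chosen after their values were seen.

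Same-numbered samples deviated together across genotypes (r = 0.390 in ICR and 0.306 in B6), though the labels do not state pairs. With 2 samples per group, each r is a single value per strain. The main fits held no term for the number, which entered only the alternative with the replicate block. Alternatives were other scalings, filters, probe set rules, all 10 samples, no trend, the replicate block, each sample left out and, added after seeing the data, the strain difference within each genotype. The members, lists and design were chosen with earlier results of these data known. Among these was the larger spread of the cystic duct pair, for which the main fits held only the groups compared. That choice bears on the Igfbp2 call, which did not pass with all 10 samples in the fit.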

Additional observations from a re-analysis of the deposited data

How the results depend on the processing

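The direction of the Igfbp2 difference with genotype was the same under every alternative run, from -1.50 to -1.26. Its limma adjusted p passed in every fit of the 8 gallbladders (0.00465 to 0.0435) and failed at 0.0621 with all 10 samples, where 0 members and 2 probe sets passed over both strains. Against 33 probe sets for genotype over both strains, 68 passed on the values as deposited, 55 with no filter, 77 with 1 main probe set per gene, 69 with the mean of the probe sets of a gene and 13 with the replicate block. Against 12 in ICR, the counts were 38 as deposited (with 1 member gene), 5 centred on medians, 20 with 1 main probe set per gene, 1 with all 10 samples and 1 with the replicate block. Against 3 in B6, they were 5 with 1 main probe set per gene, 1 with all 10 samples and 0 with the replicate block.

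Against 3831 for strain, they were 1278 with 1 main probe set per gene (4 member genes in place of 7), 1888 with the mean of probe sets, 1389 with all 10 samples, 2525 in wild type alone and 702 in Sox17+/- alone (2 member genes). Against 0 in cystic duct, 357 passed as deposited (2 member genes), 2724 with all 10 samples (5) and 1496 with the replicate block (3). The cystic duct numbers showed little sign of pairs with those of gallbladder, at r = 0.0738. The cause of these shifts was not tested, beyond fewer probe sets or samples in the fit.

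With single samples left out, probe sets called ran from 3 to 1060 for genotype over both strains, 0 to 1184 in ICR, 0 to 8 in B6, 0 to 877 for the difference of strains, 1490 to 5229 for strain and 108 to 6059 for cystic duct. Member genes called ran from 0 to 2, 0 to 2, 0 to 0, 0 to 1, 3 to 8 and 0 to 7.

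Signs turned only among differences that did not pass. On deposited values, Igf1r turned to -0.064 for genotype, Igfbp4 to -0.16 for cystic duct and the Igfbp2 difference of strains to 0.0031. Centred on medians, strain turned to 0.063 for Igf2, 0.054 for Igfbp2 and 0.031 for Igfbp6, and Igfbp4 to -0.058 for cystic duct and 0.0038 for genotype. In wild type alone, strain turned to -0.041 for Igfbp4 and 0.13 for Igfbp6, and Igf1r turned to 0.14 for cystic duct with the mean of probe sets. With single samples left out, genotype ran from -0.18 to 0.17 for Igf1, -0.035 to 0.084 for Igf1r, -0.22 to 0.070 for Igf2r, -0.034 to 0.020 for Igfbp4, -0.11 to 0.0031 for Igfbp5 and -0.045 to 0.22 for Igfbp6. Strain ran from -0.19 to 0.053 for Igfbp2 and -0.23 to 0.037 for Igfbp6, the Igfbp2 difference of strains from -0.34 to 0.14, and cystic duct from -0.41 to 0.27 for Igf1r, -1.28 to 0.084 for Igfbp3 and -0.0097 to 0.22 for Igfbp4. The scaling moved the median of all probe sets for cystic duct from -0.07 to -0.30 as deposited and -0.19 centred on medians, for ICR genotype from -0.03 to -0.18 as deposited, for the difference of strains from 0.02 to 0.16 as deposited, and for strain from 0.05 to -0.07 as deposited.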

Other observations

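A probe set assigned to both Igf2r and Airn, the antisense RNA of the Igf2r locus, was not used in any comparison because it names more than 1 gene. Its log2 signal was 4.19 to 4.58 in the 8 gallbladder samples, near the bottom of the scale. In cystic duct it was 4.47 in 1 sample and 5.80 in the other.

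Among the 10 measured genes nearest to Igf1 on the chromosome, 1 passed for genotype over both strains in limma, with a log2 difference of -2.07: Pmch, the precursor of melanin-concentrating hormone. Igf1 itself differed by -0.01 there (SE 0.16, adjusted p = 0.991). Pmch was named after its value was seen.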
